A study of Mus musculus with 4 samples.

Results

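The clustered protocadherins are 57 protein-coding genes of mouse chromosome 18, taken as every gene of the GENCODE M21 annotation there whose symbol starts with Pcdha, Pcdhb or Pcdhg, out of 21853 protein-coding genes that were given the same kind of window. They comprise 14 genes of the alpha cluster, 22 of the beta cluster and 21 of the gamma cluster. For each gene the window ran from 1 kb upstream of the start of its variable first exon to the end of that exon. On the mm10 build the alpha windows lay on chromosome 18 between positions 36929285 and 37146530, the beta windows between 37263938 and 37524479 and the gamma windows between 37660793 and 37822134, all on the forward strand. The annotation gives the symbol Pcdha11 to 2 genes, and these are told apart below by their identifiers.

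Clustered protocadherins are cell adhesion proteins of the cadherin superfamily that sit on the surface of neurons and bind matching isoforms on other cells. In the alpha and gamma clusters each variable first exon has its own promoter and encodes the extracellular part, the transmembrane segment and the start of the tail, and it is spliced to constant exons shared by the whole cluster, whereas each beta gene is a single exon without a constant region. Individual neurons express a small, largely random set of the alternate isoforms together with the C-type isoforms (Pcdhac1, Pcdhac2, Pcdhgc3, Pcdhgc4 and Pcdhgc5), and CTCF binding, cohesin and DNA methylation of the variable promoters are known to take part in this choice.

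The data were 4 libraries of reduced representation bisulfite sequencing (RRBS), a method that cuts DNA with MspI at CCGG, keeps CpG-rich fragments and reads unmethylated cytosines as thymines after bisulfite treatment. They came from R1 ESCs, a wild-type mouse embryonic stem cell line, from a Tet/Tet ESC line derived from R1 that carries tet-off constructs at the Dnmt1 promoter and that the study describes as overexpressing this maintenance methyltransferase, and from neurons derived from each line by embryoid body formation for 2 days and neural induction for 10 to 15 days, as given in the labels. Tet/Tet ESCs were kept in puromycin at 1 µg/ml and neomycin at 150 µg/ml. There was 1 library for each line and cell type, so no spread between replicates exists, no test between conditions was made, and every difference below compares 2 libraries. Tet/Tet stands for 1 engineered line. ESCs and neurons were sequenced under separate project numbers and, by the labels, had their DNA extracted differently, so cell type, project and extraction cannot be told apart. Within a cell type both lines shared 1 project. No RNA was measured, so neither the identity of the cells nor the use of any promoter was checked.

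The tables gave a methylation percentage per CpG and no read totals, so the depth behind each value is unknown and each site had equal weight. On chromosome 18 the ESC tables listed 70968 (R1) and 90111 (Tet/Tet) sites, and for neurons the numbers were 170857 (R1) and 157097 (Tet/Tet). Unless stated otherwise, levels are means over CpGs listed in all 4 libraries, and a window was compared when it held at least 10 such sites. The windows held 1134 of these sites, 283 in alpha, 186 in beta and 665 in gamma. Of the 57 windows, 39 reached the minimum, namely 10 of alpha, 9 of beta and 20 of gamma. The beta windows were the poorest in CpGs, with a median of 1.93 per 100 bp against 3.73 in alpha and 3.22 in gamma, and a median of 7.24% of their CpGs were listed in every library against 13.1% in alpha and 23.7% in gamma. The beta exons were also the longest (median 3714 bp, against 2490 bp in alpha and 2607 bp in gamma), and 3 pairs of neighbouring beta windows overlapped, those of Pcdhb17 with Pcdhb18, Pcdhb19 with Pcdhb20 and Pcdhb21 with Pcdhb22.

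The variable exons were lowly methylated in both ESC libraries and in Tet/Tet neurons, and the library of R1 neurons stood apart from these 3. Over all windows the site mean was 10.5% (R1) and 11.7% (Tet/Tet) in ESCs and 54.9% (R1) and 9.59% (Tet/Tet) in neurons. R1 neurons had the highest level of the 4 libraries in 39 of 39 windows. This was not counted over all genes, but the 9377 other genes tested also had their highest median in R1 neurons. Their medians were 2.12% (R1) and 2.33% (Tet/Tet) in ESCs and 3.75% (R1) and 2.41% (Tet/Tet) in neurons. In the alpha cluster the site means in the same order were 11.6%, 11.7%, 41.1% and 6.97%. In the beta cluster they were 17.3%, 19.6%, 69.1% and 7.83%. The beta genes thus had the highest level of the clusters in both ESC libraries and in R1 neurons, but not in Tet/Tet neurons. In the gamma cluster the site means were 8.23%, 9.54%, 56.7% and 11.2%. The clusters overlapped in R1 neurons, where the windows ran from 20.6% to 82.5% in alpha (median 43.3%), from 53.6% to 81.5% in beta (median 68.3%) and from 11.5% to 84.7% in gamma (median 64.3%). The lowest of the 9 tested beta windows, that of Pcdhb21, lay above 7 of 10 alpha windows and 4 of 20 gamma windows. With the sites listed in both neuron libraries, 19 beta windows were tested, and the lowest in R1 neurons was Pcdhb5 at 37.1%. The medians in R1 neurons were then 50.7% in alpha, 66.1% in beta and 64.1% in gamma.

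**Figure D1:**
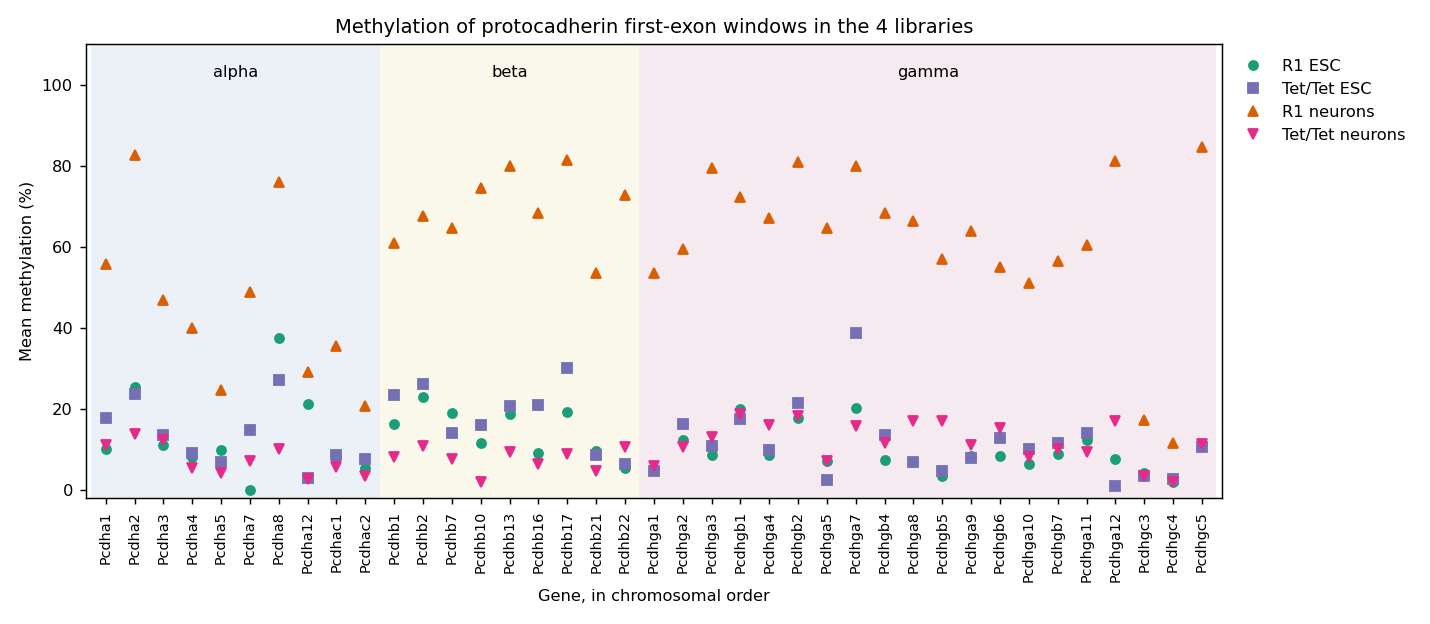
Mean methylation in percent (vertical axis) of the 39 first-exon windows with at least 10 CpG sites, in chromosomal order (horizontal axis), with 1 point for each of the 4 libraries and shading for the alpha, beta and gamma clusters. R1 neurons (triangles pointing up) are the highest point for every gene, from 11.5% at Pcdhgc4 to 84.7% at Pcdhgc5, while Tet/Tet neurons (triangles pointing down) reach at most 18.7%.

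The values of single CpG sites spread differently in the 4 libraries. In R1 ESCs 71.3% of the 1134 sites were at or under 10% methylation, 27.1% lay between 10% and 90%, and 1.68% were at or above 90%. The same shares were 67.5%, 31.0% and 1.41% in Tet/Tet ESCs. In R1 neurons they were 14.6%, 65.6% and 19.8%. Sites of intermediate level were thus the most common kind in R1 neurons only, but over all 2942 sites that this library listed in the windows the shares were 21.4%, 40.9% and 37.6%. In Tet/Tet neurons 64.5% of sites were at or under 10%, 35.2% lay between and 0.353% were at or above 90%. At sites of intermediate level, a mixture of methylated and unmethylated copies and of differing cells cannot be told apart. By cluster, the share of sites at or above 90% in R1 neurons was 9.54% in alpha, 31.2% in beta and 20.9% in gamma.

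The first comparison asks how the variable exons differed between R1 ESCs and R1 neurons, the wild-type course of differentiation. Of the 39 windows, 37 were higher in R1 neurons by at least 10 percentage points and 0 were lower, where 18.4% of the 9416 protein-coding windows tested genome-wide were higher and 0.0743% lower. The median difference was 48.3 percentage points, 33.7 in alpha, 59.1 in beta and 54.5 in gamma. The largest differences were those of Pcdhga12 and Pcdhgc5. Pcdhga12, the last alternate gene of the gamma cluster, had 7.55% (R1) and 1.11% (Tet/Tet) in ESCs and 81.0% (R1) and 17.1% (Tet/Tet) in neurons, a difference of 73.5 points between the R1 libraries that was seen at 29 of its 30 sites. The 2 windows within 10 points were those of Pcdha12 and Pcdhgc4. Pcdha12 had 21.2% (R1) and 3.03% (Tet/Tet) in ESCs and 29.0% (R1) and 2.70% (Tet/Tet) in neurons. Its level in R1 ESCs rested on few sites, since the 12 sites in the first 1 kb of the exon averaged 3.23% and the 4 sites beyond it 75%.

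Within the alpha cluster the windows of R1 neurons covered a wide range. The lowest were Pcdhac2 at 20.6%, Pcdha5 at 24.7% and Pcdha12 at 29.0%. The highest were Pcdha1 at 55.7%, Pcdha8 at 75.9% and Pcdha2 at 82.5%. Pcdha2 and Pcdha8 were also the alpha windows of the highest level in R1 ESCs, with 25.4% and 37.5%, and in Tet/Tet neurons they had 13.8% and 10.1%. The value of Pcdha2 was the highest of the alpha windows there, and it was 23.9% as a mean over 100 bp bins. Pcdha7 was at 0% in R1 ESCs at the 17 sites shared by the libraries, where Tet/Tet ESCs had 14.7% and the neurons 48.8% (R1) and 7.25% (Tet/Tet). Over all sites that each ESC library listed in this window, Pcdha7 had 12.5% in R1 (32 sites) and 12% in Tet/Tet (25 sites).

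The 9 tested beta windows had an SD of 8.96 percentage points in R1 neurons, against 20.7 in alpha and 19.1 in gamma. With the sites of both neuron libraries, which gave 19 beta, 13 alpha and 21 gamma windows, the SDs were nearer each other, at 14.9, 18.2 and 17.6 points. Among the 9 windows tested at first, the lowest were Pcdhb21 at 53.6%, Pcdhb1 at 61.0% and Pcdhb7 at 64.5%. The highest of these 9 were Pcdhb10 at 74.4%, Pcdhb13 at 79.98% and Pcdhb17 at 81.5%. Pcdhb1, the beta gene nearest the alpha cluster, had 16.3% (R1) and 23.4% (Tet/Tet) in ESCs and 8.09% in Tet/Tet neurons. Pcdhb10 had 11.5% (R1) and 16.0% (Tet/Tet) in ESCs and 1.90% in Tet/Tet neurons at 11 shared sites, and 12.4% over the 36 sites that Tet/Tet neurons listed in its window.

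The gamma cluster holds alternate exons of the A and B kinds interspersed along the chromosome, and these had similar levels. The site means of the 11 tested A windows were 8.93% (R1) and 10.0% (Tet/Tet) in ESCs and 64.8% (R1) and 11.9% (Tet/Tet) in neurons. Those of the 6 B windows were 9.24%, 12.3%, 63.6% and 14.7%. The 3 lowest gamma windows in R1 neurons were Pcdhgc4 at 11.5%, Pcdhgc3 at 17.4% and Pcdhga10 at 51.1%. The 3 highest were Pcdhgb2 at 80.9%, Pcdhga12 at 81.0% and Pcdhgc5 at 84.7%, so the C-type genes lay at both ends of the cluster's range.

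The C-type genes are the members with the most constant expression among neurons, and in R1 neurons 4 of them had low windows while Pcdhgc5 stood apart. The SD over the 5 windows was 29.7 percentage points, against 15.6 over the 25 alternate alpha and gamma windows. Without Pcdhgc5 the C-type SD was 10.3, but Pcdhgc5 was set aside for its level in these data, so a smaller SD follows by construction. Pcdhac1, at 42 sites, had 8.07% (R1) and 8.66% (Tet/Tet) in ESCs and 35.6% (R1) and 5.79% (Tet/Tet) in neurons. Pcdhac2, at 61 sites, had 5.52%, 7.74%, 20.6% and 3.44% in the same order. Pcdhgc3, at 91 sites, had 4.29%, 3.44%, 17.4% and 3.36%. In R1 neurons Pcdhac2 and Pcdhgc3 were lower than each tested alternate alpha and gamma window, and Pcdhac1 was lower than each but Pcdha5 and Pcdha12. Pcdhgc4, at 25 sites, had 2.11%, 2.65%, 11.5% and 2.00%, the lowest level of any window in R1 neurons. Pcdhgc5, at 27 sites, had 11.4%, 10.5%, 84.7% and 11.4%, the highest level of any window in R1 neurons, and 26 of its sites were higher there than in R1 ESCs. Over the 5 C-type windows the site mean in R1 neurons was 28.1%, and without Pcdhgc5, again set aside for its level, it was 21.1%. The alternate alpha and gamma windows had 60.5%.

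The C-type levels also differed with position, and 151 of the 246 C-type sites lay in the first 1 kb of the exon. In R1 neurons the first 1 kb of Pcdhac2 had 3.81% over 44 sites, and the rest of its exon had 64.1% over 17 sites. Pcdhgc3 had 6.12% over 48 sites in the first 1 kb and 40.5% over 30 sites beyond it. Pcdhgc4 had 4.71% over 23 sites in the first 1 kb, and the 2 sites beyond it averaged 90%. In R1 ESCs the same first stretches of these 3 genes had 1.21%, 1.60% and 2.29%. Pcdhac1 had 37.0% over 29 sites in the first 1 kb and 78.8% over 5 sites beyond it, while 8 sites upstream of its exon averaged 3.72%. Of the C-type genes Pcdhgc5 alone was high in both stretches, with 91.3% over 7 sites and 88.4% over 16 sites. The alternate alpha and gamma genes with at least 5 sites in the first 1 kb, 28 in number, ranged there from 21.3% at Pcdha12 to 88.9% at Pcdha2 in R1 neurons, so the first 1 kb of Pcdhac2, Pcdhgc3 and Pcdhgc4 lay below each of them.

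**Figure D2:**
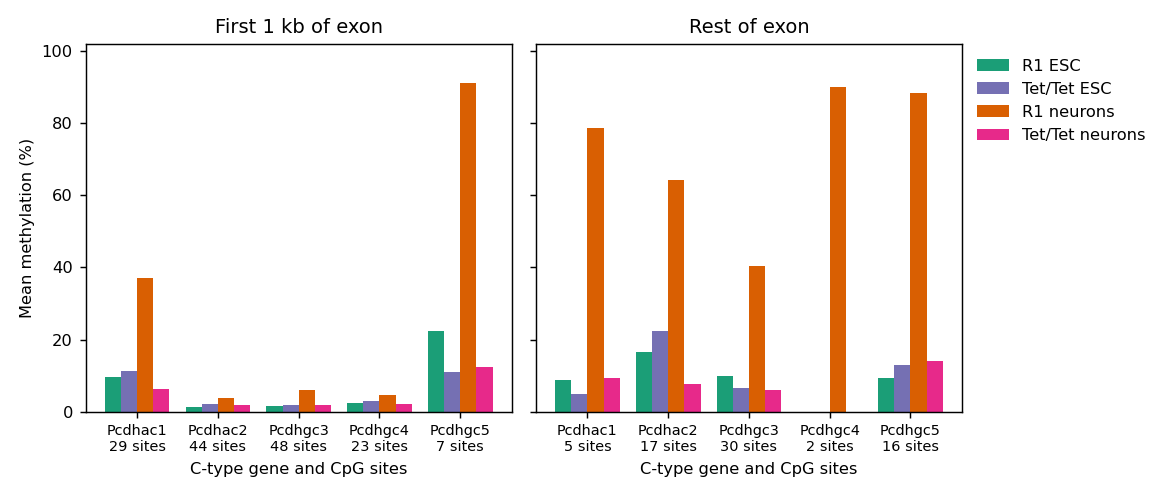
Mean methylation in percent (vertical axis) of the 5 C-type genes in the first 1 kb of the variable exon (left) and in the rest of the exon (right), with 1 bar per library and the number of CpG sites under each gene. In R1 neurons the first 1 kb of Pcdhac2, Pcdhgc3 and Pcdhgc4 stays between 3.81% and 6.12% while Pcdhgc5 reaches 91.3%, and the rest of the exon is between 40.5% and 90%, the last from 2 sites of Pcdhgc4.

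A lower start than remainder of the exon was a general pattern of R1 neurons. In the alpha cluster the first 1 kb averaged 30.9% and the rest of the exons 66.8%. In the gamma cluster the values were 47.4% and 73.8%, and in the beta cluster 63.6% and 72.9%. The rest of the exon was the more methylated in 21 of the 24 genes with at least 5 sites in both stretches, among them 5 of 6 alpha, 2 of 2 beta and 14 of 16 gamma genes. The clusters lay closer together in the rest of the exon than in its first 1 kb, and their sites were spread unevenly over these stretches, since 187 of 283 alpha sites but 51 of 186 beta sites fell in the first 1 kb. In Tet/Tet neurons the first 1 kb and the rest averaged 5.19% and 11.8% in alpha, 6.76% and 8.68% in beta, and 8.99% and 15.9% in gamma. In R1 ESCs alpha and gamma were also lower in the first 1 kb, with 7.03% against 20.8% and 5.38% against 13.0%, whereas beta had 21.8% against 16.3%.

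By steps of 250 bp, gamma sites in R1 neurons averaged 25.6% in the step just upstream of the exon, 38.6% in the step just downstream of its start, 67.8% in the step ending at 1 kb and 78.5% in the step centred at 1375 bp. Alpha sites in the same steps averaged 20.4%, 30.6%, 38.5% and 73.1%. Beta sites had 50.9%, 43.0%, 91.9% and 90.4%, and then lower levels of 58.7% and 59.1% in the steps centred at 1875 and 2125 bp. Both ESC libraries rose in the beta cluster as well, with 33.4% (R1) and 39.8% (Tet/Tet) in the step ending at 1 kb, from 12 sites. In the step centred at 1125 bp they had 31.0% and 41.2%, from 20 sites. In the step centred at 1375 bp R1 ESCs had 18.6% and Tet/Tet ESCs 53.7%, from 11 sites. Few sites lay upstream of the exons, 14 in alpha, 11 in beta and 43 in gamma, so the promoters themselves were little sampled.

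**Figure D3:**
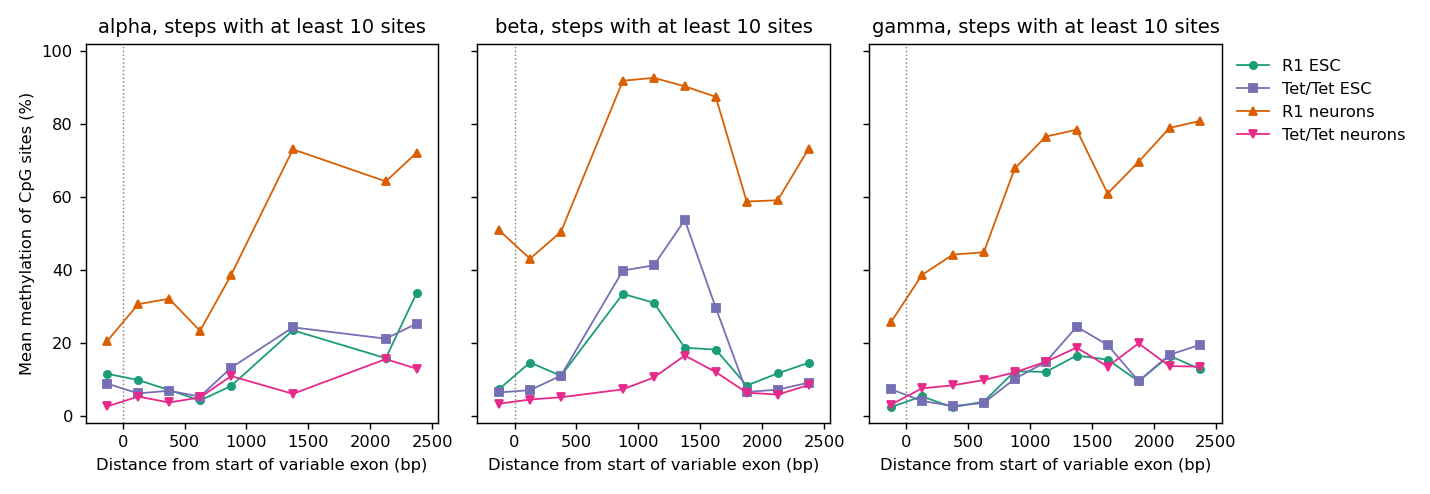
Mean methylation in percent (vertical axis) of CpG sites by distance in bp from the start of the variable exon (horizontal axis, steps of 250 bp with at least 10 sites, dotted line at the start) for the alpha, beta and gamma clusters, with 1 line per library. R1 neurons lie above the other 3 libraries in every step, from 20.4% in the step upstream of the alpha exons to 92.7% in the beta step centred at 1125 bp.

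The second comparison asks how Tet/Tet neurons differed from R1 neurons. All 39 windows were lower in Tet/Tet neurons, 38 of them by at least 10 percentage points, where 18.8% of all windows tested were lower and 0.0531% higher by that much. This comparison shares the R1 neuron library with the previous one. The median difference was -51.1 points, with -34.5 in alpha, -61.8 in beta and -51.1 in gamma. The largest were -73.3 points at Pcdhgc5 and -72.5 points at Pcdhb10, followed by Pcdhb17, with 81.5% in R1 and 9.01% in Tet/Tet. The windows with the smallest differences were Pcdhgc4 at -9.54 points and Pcdhgc3 at -14.0 points, the same genes that were low in R1 neurons. The lower level was not particular to these genes. Over the 58413 sites of chromosome 18 listed in all 4 libraries, R1 neurons averaged 55.2% and Tet/Tet neurons 11.4%. Over the sites of the protocadherin windows the means were 54.9% and 9.59%. Over the 39 windows the levels in Tet/Tet neurons spanned 1.90% to 18.7% and were correlated with those of R1 neurons (Pearson's r 0.63, Spearman's rho 0.57, across genes that are neighbours on 1 chromosome and share both libraries, and so are not independent). By cluster, Pearson's r was 0.86 in alpha (10 windows), 0.26 in beta (9 windows) and 0.75 in gamma (20 windows). Spearman's rho was 0.87, 0.25 and 0.67.

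With only the sites listed in both neuron libraries, 53 windows reached the minimum, among them 14 of the 18 that could not be compared over the 4 libraries. All 53 were lower in Tet/Tet neurons by at least 10 points. In these 14 windows R1 neurons ranged from 37.1% to 91.4% and Tet/Tet neurons from 0% to 14.5%. Pcdhb20 had 90.7% in R1 and 5.96% in Tet/Tet at 22 sites, a difference of -84.7 points, the largest of the 53. Both genes named Pcdha11 were among the 14. The one with the identifier ENSMUSG00000007440.10 had 50.7% and 5.56% over 27 sites, and the one with ENSMUSG00000102206.5 had 60.8% and 5.61% over 28 sites. The windows of Pcdha6, Pcdhb6, Pcdhb8 and Pcdhb12 held fewer than 10 sites shared by the neuron libraries and remained without a comparison.

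**Figure D4:**
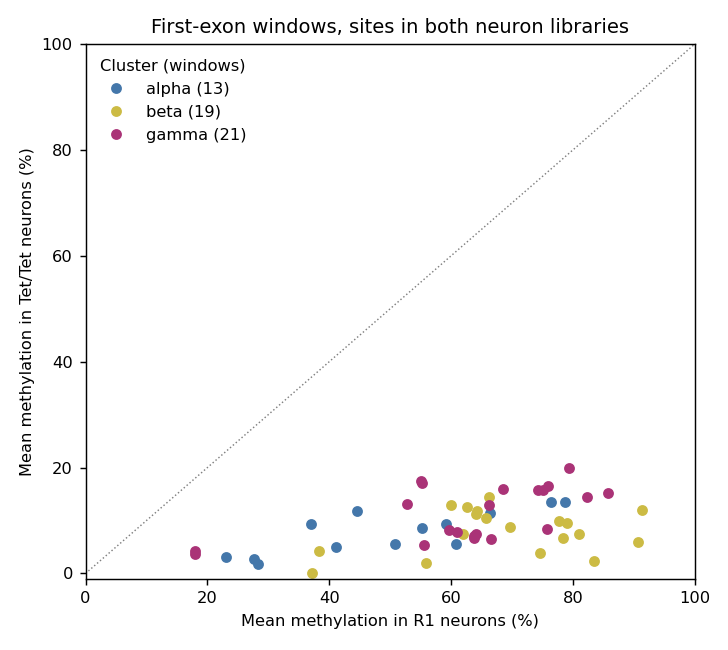
Mean methylation in percent of the 53 first-exon windows with at least 10 CpG sites listed in both neuron libraries, R1 neurons on the horizontal and Tet/Tet neurons on the vertical axis, with 1 point per gene coloured by cluster and a dotted line of equal levels. Every point lies under the line, from 17.97% to 91.4% in R1 neurons and from 0% to 19.96% in Tet/Tet neurons.

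The third comparison is that of Tet/Tet ESCs with R1 ESCs, where differences were small and went both ways. Of the 39 windows, 25 were higher and 14 lower in Tet/Tet ESCs, with a median difference of 1.17 points. By at least 10 points, 4 windows were higher and 2 lower, where 1.15% of all windows tested were higher and 0.382% lower. The higher ones were Pcdhga7 (R1 20.1%, Tet/Tet 38.8%), Pcdha7 (0% and 14.7%), Pcdhb16 (9.15% and 20.9%) and Pcdhb17 (19.3% and 30.1%). The lower ones were Pcdha12 (21.2% and 3.03%) and Pcdha8 (37.5% and 27.2%). These 6 windows held 10 to 21 sites each, and with a minimum of 20 sites 0 were higher and 1 was lower. Over each library's own sites, which are partly different CpGs, the Pcdha7 difference was gone (12.5% and 12%) and that of Pcdhb17 turned (27.4% and 23.9%). Pcdha8 and Pcdha12 differed by less than 10 points in unique stretches of sequence, and Pcdhb17 within MspI fragments. The C-type windows differed by at most 2.22 points between the ESC libraries. Across the 39 windows the levels of the ESC libraries were correlated (Pearson's r 0.69, Spearman's rho 0.72, as a description over neighbouring genes).

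The fourth comparison, Tet/Tet neurons with Tet/Tet ESCs, shares a library with each of the previous 2. The median difference was -2.87 points, and 3 windows were higher and 8 lower by at least 10 points, where 0.404% and 2.88% of all windows tested were higher and lower. By cluster, 6 of the 9 beta windows were lower, against 1 of 10 in alpha and 1 of 20 in gamma, and all of the higher windows were gamma windows. The largest negative differences were -22.9 points at Pcdhga7 and -21.1 points at Pcdhb17, both of which were among the windows that had exceeded R1 in the ESC comparison. The higher windows were Pcdhga12, Pcdhgb5 (4.71% in ESCs and 17.1% in neurons) and Pcdhga8 (6.97% and 17.1%). With the sites listed in both Tet/Tet libraries, 49 windows were tested. Of these, 6 of 16 beta, 1 of 13 alpha and 1 of 20 gamma windows were lower, and 2 gamma windows were higher. The difference of Pcdhga8 was 4.95 points over the sites listed in both Tet/Tet libraries, and that of Pcdhgb5 was 9.42 points within MspI fragments. For Pcdhga12, 21 of 30 sites were higher in Tet/Tet neurons than in Tet/Tet ESCs and 0 were lower.

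The shared constant exons were poorly sampled, but those of the alpha cluster gave a clear reading. These 3 exons, which encode the common cytoplasmic tail, lie on chromosome 18 at 37156155-37156213, 37159265-37159353 and 37184946-37187657 and hold 39 CpGs, of which 11 were listed in all 4 libraries. Their mean was 40.8% (R1) and 49.7% (Tet/Tet) in ESCs and 92.3% (R1) and 16.2% (Tet/Tet) in neurons. In each library this was above the site mean of the alpha variable windows. At the 3 sites of the first constant exon the means were 43.5%, 53.2%, 95.9% and 11.7%, and at the 8 sites of the third, which includes the 3′ UTR, they were 39.8%, 48.4%, 91.0% and 17.9%. In the gamma cluster only 2 of 45 CpGs of the constant exons were listed in every library, with 0% in both ESC libraries and neuron levels of 12.5% (R1) and 8.33% (Tet/Tet), which is too few for a comparison of the clusters. Over each library's own sites the order of the neuron levels turned, with 8.33% in R1 (7 sites) and 17.7% in Tet/Tet (9 sites). The first constant exon of gamma lies at 37825021-37825079.

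Set beside the same window in the 9377 other protein-coding genes that could be tested, the clustered protocadherins were the more methylated in each library. The median window of the other genes had 2.12% (R1) and 2.33% (Tet/Tet) in ESCs and 3.75% (R1) and 2.41% (Tet/Tet) in neurons, and that of the clustered protocadherins had 9.15%, 11.5%, 64.0% and 10.1%. The protocadherin medians lay above 93.0%, 94.998%, 95.7% and 95.2% of the other genes. In R1 neurons 30 of the 39 windows (76.9%) were at or above 50%, against 5.78% of the other genes. The windows were not alike in make-up, since those of the tested protocadherins had a median length of 3601 bp and 3.22 CpGs per 100 bp, and those of the tested other genes 1263 bp and 4.91 CpGs per 100 bp. The part of length and CpG density in these levels was not tested. Across the 39 windows CpG density and the level in R1 neurons had a Pearson's r of -0.46 and a Spearman's rho of -0.40. By cluster, Pearson's r was -0.03 in alpha (10 windows), 0.20 in beta (9 windows) and -0.44 in gamma (20 windows). Spearman's rho was -0.13, 0.15 and -0.30. The windows are neighbours on 1 chromosome and so are not independent. Over all 58413 sites of chromosome 18 listed in the 4 libraries the means were 28.2%, 29.8%, 55.2% and 11.4%, so the protocadherin windows were below the chromosome in both ESC libraries and within 2 percentage points of it in both neuron libraries.

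**Figure D5:**
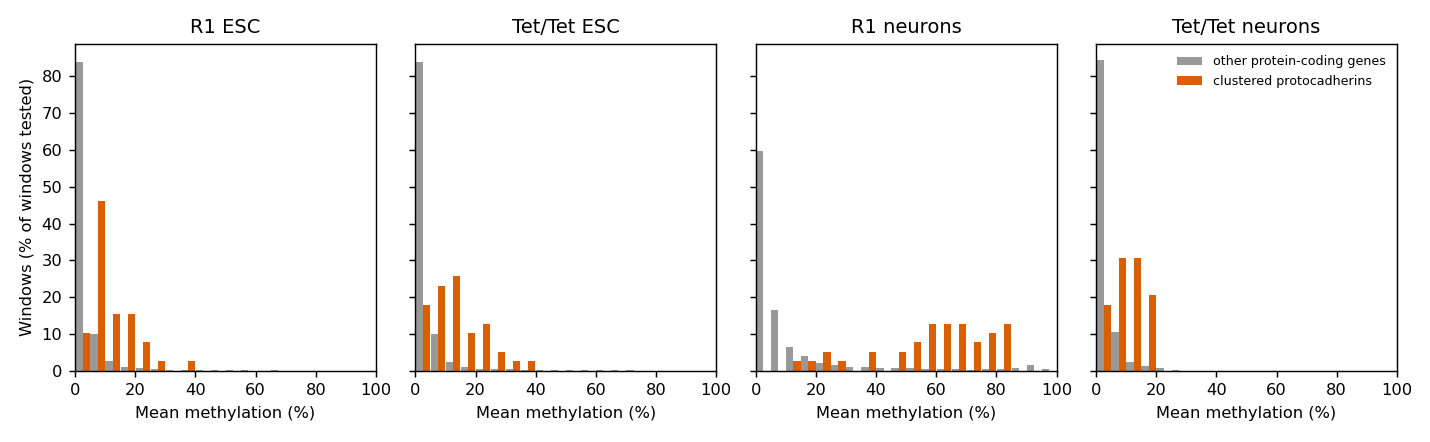
Distribution of mean window methylation (horizontal axis, percent, in steps of 5) in each library for the 9377 other protein-coding genes (grey) and the 39 clustered protocadherins (orange), as percent of the windows tested in each set (vertical axis). In R1 neurons 76.9% of the protocadherins but 5.78% of the other genes are at or above 50%, and in Tet/Tet neurons no window of either set is.

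The related genes outside the clusters had lower levels in most cases, but their tested windows were richer in CpGs. The medians were 5.37 per 100 bp in non-clustered protocadherins, 3.77 in flanking genes and 6.90 in regulator genes, against 3.22 in clustered protocadherins. The part of CpG density in these levels was not tested. Of 12 non-clustered protocadherins, which have their own complete gene structures elsewhere in the genome, 9 could be tested, with medians of 4.37% (R1) and 3.69% (Tet/Tet) in ESCs and 10.0% (R1) and 2.69% (Tet/Tet) in neurons. Exceptions were Pcdh12, which lies near the clusters on chromosome 18 and had 56.7%, 46.3%, 94.3% and 13.1%, and Pcdh11x, with 20.7%, 31.1%, 92.2% and 9.33%. They were the poorest in CpGs of the 9, with 1.78 and 1.23 per 100 bp. Pcdh1, with only 8 sites and so not tested, had 41.0%, 44.1%, 94.2% and 18.5%. In R1 neurons against R1 ESCs 2 of the 9 tested were higher by at least 10 points and 0 lower, and in Tet/Tet neurons against R1 neurons 3 were lower and 0 higher. The 19 tested genes of 31 that flank the clusters within 500 kb, Pcdh12 again among them, had medians of 2.05%, 2.63%, 4.94% and 2.38%. By at least 10 points, 5 of them were higher and 0 lower in R1 neurons than in R1 ESCs. In Tet/Tet neurons 4 were lower and 0 higher than in R1 neurons. These 4 were Pcdh12, AC115631.1 (53.9%, 45.9%, 93.0% and 17.7%), Eif4ebp3 (14.0%, 8.74%, 93.1% and 15.6%) and E230025N22Rik (10.3%, 14.3%, 55.7% and 5.59%). Of all windows tested, 18.4% were higher and 0.0743% lower by that much in R1 neurons than in R1 ESCs. In Tet/Tet neurons 18.8% of them were lower and 0.0531% higher than in R1 neurons. Of 13 genes for regulators of protocadherin promoter choice and silencing, among them cohesin subunits, the cohesin release factor Wapl, the de novo methyltransferase Dnmt3b and the chromatin protein Smchd1, 10 could be tested. Their windows had medians of 1.60%, 1.88%, 2.55% and 2.27%, at most 7.78% in R1 neurons (Smc3), and 0 of the 10 differed by 10 points in any of the 4 comparisons. The shares of all windows tested are given with each comparison above. Dnmt3b had 1.31%, 1.33%, 1.60% and 1.45%. Ctcf and Stag1 were not analysed here in all 4 libraries.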

How the data were processed

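RRBS libraries of R1 and Tet/Tet ESCs and neurons were used, 1 per condition, grouped by the sample titles. According to the submitters' processing notes, Trim Galore 0.6.4, FastQC 0.11.8, Bismark 0.19.0, MethylDackel 0.3.0 and the mm10 build were used. The authors deposited a table per library with the methylation of each CpG in percent of its reads, from 0 to 100, neither normalized across libraries nor accompanied by read totals, so the read-based Fisher's exact test of the study's methods could not be applied and no interval is given.

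Windows were built from the GENCODE M21 annotation, with 1 transcript per gene (longest coding sequence), and levels were unweighted means over sites. Each site of the 6223978 listed in any library lay at a CpG of mm10. A call needed a difference of at least 10 percentage points and 10 sites. The calculation was checked on simulated data. Python 3.11.15, numpy 2.4.6, pandas 2.3.3 and matplotlib 3.10.9 were used. Named genes are the 3 highest and 3 lowest windows per cluster in R1 neurons, the C-type genes, the 2 largest differences each way per comparison, and the listed related genes. Others named for completeness (Pcdhb16, Pcdhga8, Pcdhb20, both Pcdha11 genes, untested genes) were chosen after their values were seen. The members and lists were chosen with earlier results of these data known. Alternatives covered the sites, the site minimum, the window, the averaging, the size of the call, MspI fragments of 40 to 220 bp and sequence uniqueness. Stretches of 5 sites for parts of exons, the C-type set without Pcdhgc5, and windows ending at the coding end, were chosen after seeing the data. No predicted gene flanking the clusters whose window overlaps a member's was kept (3 were left out).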

Additional observations from a re-analysis of the deposited data

Results flagged for a closer look

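The difference between Tet/Tet and R1 was of another size or direction in neurons than in ESCs, which was not tested since each condition had 1 library. As neuron difference minus ESC difference of the site means, it was -34.3 percentage points for the alpha windows, -63.6 for the beta windows and -46.9 for the gamma windows. For the alpha constant exons it was -85.0 points, from 8.93 points in ESCs and -76.1 points in neurons over 11 sites. In each cluster the Tet/Tet mean of the variable windows was at or slightly above the R1 mean among ESCs and below it among neurons.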

How the results depend on the processing

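No called single-window difference reversed under the alternatives that read both libraries at the same sites. Each library's own sites were not part of that count. Over those sites, as given above, the ESC difference of Pcdhb17 turned and that of Pcdha7 was gone. Among the recomputed values of called single-window differences, 714 stayed past 10 points and 17 did not. This pools all comparisons, and most calls were those of the R1 neuron library (38 windows against Tet/Tet neurons, 37 against R1 ESCs). Taking all protein-coding transcripts left the sites of each cluster unchanged, so those values stayed by construction. The 17 included ESC differences of Pcdha8, Pcdha12 and Pcdhb17, so the count does not describe the few ESC calls. Levels were taken as unmoved when they moved by less than the SD over windows.

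With 1 kb upstream only, the means were 2.31% (alpha, Tet/Tet neurons), 7.23% and 6.33% (beta, R1 and Tet/Tet ESCs), 50.9% and 3.24% (beta, R1 and Tet/Tet neurons) and 37.1% and 2.85% (gamma, R1 and Tet/Tet neurons), and 1 window could be tested, with 0 calls in each comparison. Windows higher and lower in Tet/Tet ESCs than R1 ESCs numbered 0 and 1 with 20 sites, 1 and 0 within MspI fragments, 2 and 0 in unique stretches, 7 and 4 at 5 points and 0 and 0 at 25 points. The lower ones numbered 1 with the sites of the 2 libraries compared, 4 with 5 sites and 1 with the exon only. Of the 24 windows tested with 20 sites, 23 were lower in Tet/Tet than R1 neurons and 23 higher in R1 neurons than R1 ESCs, and within MspI fragments the counts were 22 and 22 of 24. In Tet/Tet neurons against Tet/Tet ESCs, 1 was higher and 4 lower within MspI fragments, 3 lower with 20 sites, 13 lower at 5 points, and 0 higher and 0 lower at 25 points. With each library's own sites, gamma constant exons had 16.7% (Tet/Tet) and 0% (R1) in ESCs and 17.7% (Tet/Tet) and 8.33% (R1) in neurons, 37.6% of sites were at or above 90% in R1 neurons, and 74.8% at or under 10% in Tet/Tet neurons. With limits of 20% and 80%, the low share was 84.2% (R1) and 80.3% (Tet/Tet) in ESCs and 87.1% in Tet/Tet neurons, and the high share in R1 neurons 30.9%.

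Of all protein-coding windows, with 20 sites and on chromosome 18 alone, 0.327% and 2.42% were higher and 0.136% and 1.21% lower in Tet/Tet than R1 ESCs. In Tet/Tet neurons against Tet/Tet ESCs 0.259% and 1.52% were higher and 0.928% and 4.85% lower, and in R1 neurons against R1 ESCs 0.0136% and 0% were lower. On chromosome 18 alone 0% were higher and 27.9% lower in Tet/Tet than R1 neurons, and 27.3% were higher in R1 neurons than R1 ESCs. The 330 windows of chromosome 18 include the 39 protocadherin windows. Of the 291 others, 4 were higher and 2 lower in Tet/Tet than R1 ESCs. Among these 291, 54 were lower in Tet/Tet than R1 neurons and 53 higher in R1 neurons than R1 ESCs. Where the alternatives tested fewer windows or set another limit, the counts move by construction. The cause of other changes was not tested. No paired analysis was possible because each group has 1 library. The unknown depth limits every value, and 65 alpha, 53 beta and 71 gamma sites lay in stretches of 50 bp that, read with C as T, occur more than once among the windows.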
